A study of Mus musculus with 1 sample.

Results

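The genes described here were 48 components of transforming growth factor beta (TGF-beta) and bone morphogenetic protein (BMP) signalling, read in cultured mouse midbrain glia. They were taken by gene symbol from a table of 23282 rows and comprised ligands, receptors, latent TGF-beta binding proteins, antagonists, SMADs and ID target genes. Each of the 48 symbols had 1 row. The choice was made by role in the pathway, though with earlier results of these data known.

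The cells were primary mixed glia from the ventral midbrain (VM) of pups of the outbred ICR(CD-1) mouse strain, labelled as postnatal day 5 and grown in medium with serum. The study treated such VM-glia with GSK650394, an inhibitor of serum- and glucocorticoid-regulated kinase 1 (SGK1). The 1 library analysed here was the control, which by the study's account received the vehicle DMSO. Glia given the inhibitor were not analysed here. How many pups were pooled for the culture and whether it received a toxin were not given in the sources used here. With 1 library there was no contrast between groups, no replicate error and no test, and each value below is a level in this culture alone.

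TGF-beta family ligands are secreted dimers. They bring type II and type I receptor kinases together, and the type I receptor then phosphorylates SMAD proteins. TGF-beta and activin receptors act on Smad2 and Smad3, whereas BMP receptors act on Smad1, Smad5 and Smad9. Both sets pair with Smad4 and enter the nucleus. TGF-beta is stored in the matrix in a latent form bound to latent TGF-beta binding proteins (LTBPs) and has to be released before it can act. In the brain, TGF-beta is known to keep microglia in their homeostatic state, and BMPs are known to drive neural progenitors towards the astrocyte fate.

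The deposited values were normalised read counts per gene, and they summed to 27569507. The reads behind them are unknown, so no counting interval is given. Because long genes collect more reads, levels of different genes were compared only after division by the length of their annotated exons, as value per kilobase (kb). A percentile gives the percentage of detected genes with a lower value per kb. A gene was taken as detected at a value of 10 or more. Genes within 1.5-fold of each other per kb were not ranked, since no replicate spread was available to order them.

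Of the 48 genes, 46 were detected, beside 67.2% of all rows. The exceptions were the activin type II receptor Acvr2b, with a value of 5, and the ligand Bmp5, listed at 0. The median of the 48 genes was 139.5 per kb, beside 102.6 per kb for all detected genes, and 26 of the 48 lay above that median. The median percentile of the 48 genes was 56.9, and it depended on the genes they were set against: it was 62.9 among genes at 1 or more and 44.5 among genes at 100 or more. The spread between members was wide. A total of 11 genes stood at percentile 75 or higher, 5 of them at 90 or higher, and 10 genes lay under percentile 25. Together the 48 genes held 0.289% of the sum of all values.

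The members with the highest levels were target genes and secreted proteins, not receptors or SMADs. The 5 genes at percentile 90 or higher were Tgfbi, Id2, Fstl1, Id3 and Id1. Tgfbi encodes a secreted matrix protein named for its induction by TGF-beta, and the ID genes are classical targets of BMP signalling. The proximal promoters of Tgfbi, Id2, Id3 and Id4 are printed here as examples of targets of the pathway (Tgfbi had the highest level of the set), and that of the inhibitory SMAD gene Smad6 because it held the rarest motif searched. Sequences are from RefSeq on build GRCm38.p6, 5′ to 3′ on the strand of the gene, and cover the 250 bases before the annotated start (with the first 4 transcribed bases added for Smad6). The windows lie at chr13:56609336-56609585 on the plus strand for Tgfbi, chr12:25096093-25096342 on the minus strand for Id2, chr4:136143572-136143821 on the plus strand for Id3, chr13:48260866-48261115 on the plus strand for Id4 and chr9:64022056-64022309 on the minus strand for Smad6. These starts are those of RefSeq, whereas the gene spans given below are from GENCODE, which places the start further upstream for Tgfbi, Id2 and Id3, so that the windows of Id2 and Id3 lie inside those spans and that of Tgfbi does so in part. Capitals mark the SMAD box GTCT or its complement AGAC, the GC-rich motif GGCGCC known from BMP-responsive elements, and the palindrome GTCTAGAC, which contains a SMAD box on each strand.
Tgfbi: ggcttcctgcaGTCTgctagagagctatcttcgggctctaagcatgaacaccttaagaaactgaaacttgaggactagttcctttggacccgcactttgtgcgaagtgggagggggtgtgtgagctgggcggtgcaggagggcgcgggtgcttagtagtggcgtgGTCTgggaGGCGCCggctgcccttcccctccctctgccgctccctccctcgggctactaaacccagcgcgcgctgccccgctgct
Id2: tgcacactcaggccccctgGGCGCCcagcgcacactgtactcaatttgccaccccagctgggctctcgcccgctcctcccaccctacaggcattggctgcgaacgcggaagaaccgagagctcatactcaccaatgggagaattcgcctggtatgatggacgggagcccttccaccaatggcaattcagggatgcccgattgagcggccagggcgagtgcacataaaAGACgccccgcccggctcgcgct
Id3: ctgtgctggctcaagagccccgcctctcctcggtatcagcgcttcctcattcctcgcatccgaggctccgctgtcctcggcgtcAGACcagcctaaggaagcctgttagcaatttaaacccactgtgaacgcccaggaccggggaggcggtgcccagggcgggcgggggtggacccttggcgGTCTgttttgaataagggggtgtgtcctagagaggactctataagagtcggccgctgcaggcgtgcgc
Id4: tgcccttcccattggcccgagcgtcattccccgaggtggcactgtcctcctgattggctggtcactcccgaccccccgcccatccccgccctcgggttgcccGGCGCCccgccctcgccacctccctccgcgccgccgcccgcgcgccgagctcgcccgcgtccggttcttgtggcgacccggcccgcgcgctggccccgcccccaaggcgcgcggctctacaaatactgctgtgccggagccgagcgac
Smad6: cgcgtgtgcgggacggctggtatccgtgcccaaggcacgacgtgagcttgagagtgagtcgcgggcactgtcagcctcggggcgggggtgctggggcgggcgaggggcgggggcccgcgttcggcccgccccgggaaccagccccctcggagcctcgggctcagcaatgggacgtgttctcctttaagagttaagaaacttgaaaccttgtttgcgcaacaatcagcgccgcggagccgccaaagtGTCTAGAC

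In these windows, Tgfbi held the GC-rich motif 77 bases before the start and SMAD boxes 239 and 85 bases before it, each counted to the first letter of the motif. Id2 held the GC-rich motif 231 bases and a SMAD box 23 bases before its start. Id3 held SMAD boxes 166 and 68 bases before its start, and Id4 held the GC-rich motif 148 bases before its start. In Smad6 the palindrome began 4 bases before the annotated start and ran across it.

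A promoter window in RefSeq (250 bases before to 50 after the start) was matched for 36 of the 48 genes, in 45 windows. On either strand, GTCT was present in 86.7% of the member windows and in 88.0% of all 32851 windows. GGCGCC was present in 33.3% of the member windows and in 11.9% of all. The member windows were also richer in G and C, with a median of 64.3% beside 52.7%, and the part of base composition in the share with GGCGCC was not tested. GTCTAGAC was present in 0.213% of all windows and, among the 36 members with a window, in Smad6 alone. No window was matched for Acvrl1, Bmp1, Bmp2, Bmp7, Fst, Id1, Nog, Smad2, Smad4, Smad7, Tgfb3 and Tgfbr3. These genes were therefore not searched for any of the motifs. Such matches describe the letters and do not show binding.

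**Figure D1:**
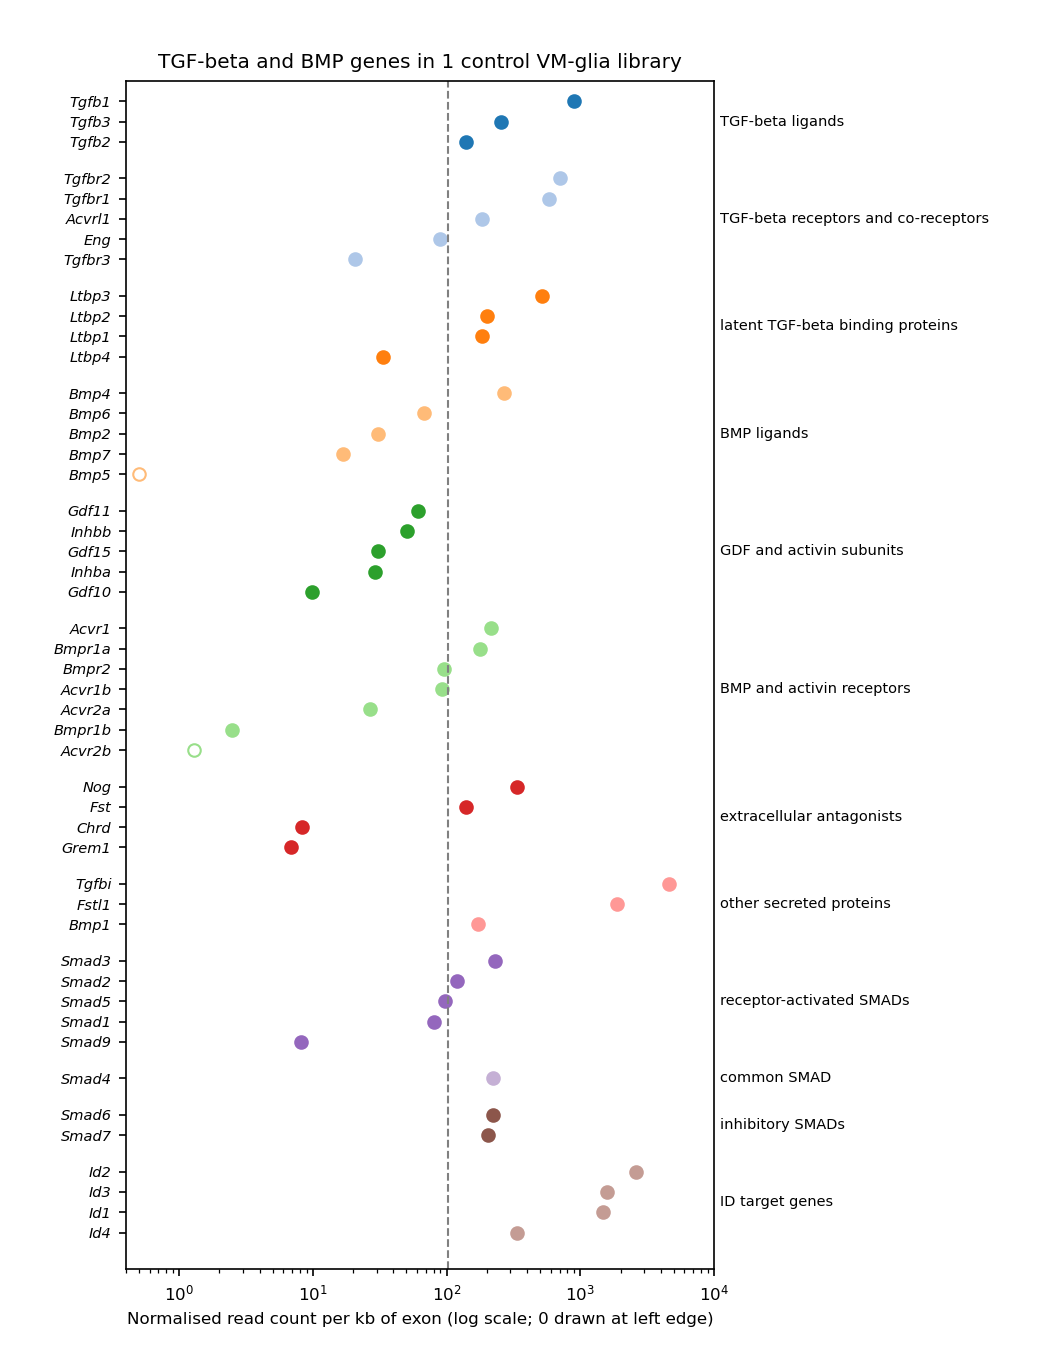
Normalised read count per kb of exon (log scale) for the 48 genes in 1 control library, grouped by role. Filled circles are detected genes, open circles are the 2 genes under a value of 10, and the dashed line is the median of all detected genes (102.6 per kb). Tgfbi, Id2, Fstl1, Id3 and Id1 lie furthest to the right, and BMP ligands other than Bmp4 lie left of the line.

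Among the TGF-beta ligands, Tgfb1 was the most abundant. Tgfb1 (chromosome 7, 25687002 to 25705077, plus strand) had a value of 4537, or 899.8 per kb, at percentile 89.9. Tgfb3, at 868 (256.6 per kb), and Tgfb2, at 803 (138.7 per kb), encode the other isoforms, which signal through the same type II receptor. The level of Tgfb1 per kb was 3.51 times that of Tgfb3 and 6.49 times that of Tgfb2. Exons of Tgfb2 and Tgfb3 overlap annotated opposite-strand transcripts over 2.1% and, for a single transcript, up to 7.6% of their length, whereas those of Tgfb1 overlap no annotated gene.

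Both core TGF-beta receptor genes stood well above the median of detected genes. Tgfbr2, the type II receptor that binds the ligand, had a value of 5794 (707.7 per kb, percentile 87.1). Tgfbr1, the type I receptor that signals to Smad2 and Smad3, had a value of 3786 (579.4 per kb, percentile 84.6). The pair differed 1.22-fold per kb and was not ranked. The co-receptor betaglycan, encoded by Tgfbr3, which presents TGF-beta to the type II receptor, was far lower at 134 (20.5 per kb), so that Tgfbr2 exceeded it 34.6-fold per kb.

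Endoglin (Eng) and the type I receptor Acvrl1 are best known from endothelial cells. Acvrl1 had a value of 778 (182.4 per kb, percentile 63.2) and Eng a value of 364 (89.9 per kb, percentile 47.1). The endothelial markers Pecam1, Cdh5, Kdr and Cldn5 had values of 33, 43, 119 and 3, at no more than 13.2 per kb, and Tek was listed at 0. Both receptors thus stood above each of the 5 endothelial markers examined. Which cells of the culture carried them was not tested.

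All 4 genes of the LTBP family were detected. Ltbp3, which binds latent TGF-beta, led with 4708 (519.1 per kb, percentile 83.0). Ltbp2, a member of the family that does not bind latent TGF-beta, had 1644 (200.9 per kb), and Ltbp1, the founding member, had 1968 (184.1 per kb). Ltbp2 and Ltbp1 were within 1.09-fold per kb. Ltbp4 was lowest at 215 (33.3 per kb), and Ltbp3 exceeded it 15.6-fold per kb. Ltbp2 exons overlap an antisense transcript over 9.3% of their length.

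The BMP ligands had a median of 30.7 per kb, beside 256.6 per kb for the TGF-beta ligands, and only Bmp4 exceeded the median of detected genes. Bmp4 was an exception to the order of the medians, since its level lay above that of Tgfb2 and within 1.5-fold of that of Tgfb3. Bmp4 (chromosome 14, 46383520 to 46390669, minus strand), a ligand known for promoting astrocyte differentiation, had a value of 604 (268.7 per kb, percentile 71.8). Bmp6 had 265 (67.9 per kb), and 5.7% of its exons overlap Txndc5 on the opposite strand, a gene with a value of 4196. Bmp2, the closest relative of Bmp4, had 109 (30.7 per kb), and Bmp7 had 68 (16.9 per kb). The level of Bmp4 per kb was 3.95 times that of Bmp6, 8.76 times that of Bmp2 and 15.9 times that of Bmp7.

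The remaining ligands were all under the median of detected genes. Gdf11, a relative of myostatin, had a value of 249 (61.3 per kb), and the activin beta B subunit gene Inhbb had 216 (50.8 per kb). The stress-responsive cytokine gene Gdf15 had 57 (30.8 per kb), and the activin beta A subunit gene Inhba had 186 (29.1 per kb). Gdf10, also known as BMP3B, was lowest at 51 (9.8 per kb). Within this group, Gdf11 and Inhbb were within 1.21-fold and Gdf15 and Inhba within 1.06-fold per kb.

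For BMP, the 3 receptor genes with the highest values came from both receptor types. The type II receptor gene Bmpr2 had a value of 1709 (95.0 per kb), and the type I receptor genes Bmpr1a and Acvr1 had 1121 (176.5 per kb) and 1033 (213.9 per kb). Bmpr2 has long exons, 17983 bases in all, so its place among these genes depends on the division by length. Acvr1 and Bmpr1a were within 1.21-fold per kb. The second BMP type I receptor gene, Bmpr1b, was low at 15 (2.5 per kb, percentile 1.4), and Bmpr1a exceeded it 70.2-fold per kb.

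Of the activin receptors, the type I receptor gene Acvr1b had a value of 408 (92.3 per kb). The type II receptor gene Acvr2a had 153 (26.9 per kb), and its exons overlap Orc4 on the opposite strand over 7.8% of their length. Acvr2b, at 5, was under the detection minimum. The activin type II receptor genes therefore both lay under percentile 25, in contrast to Bmpr2 at percentile 48.3 and Tgfbr2 at 87.1.

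Extracellular antagonists fell into a high and a low pair. Noggin (Nog, chromosome 11, 89300638 to 89302332, minus strand), which binds and blocks BMPs, had a value of 569 (335.7 per kb, percentile 75.8). Follistatin (Fst), which blocks activins, had 644 (140.3 per kb, percentile 57.1). Chordin (Chrd) and gremlin (Grem1), which also bind BMPs, had values of 52 (8.3 per kb) and 28 (6.8 per kb). Nog exceeded Chrd 40.4-fold per kb. It was within 1.25-fold of the level of Bmp4, and Fst was 4.82 times the level of Inhba per kb. The other activin subunit gene of the set, Inhbb, was nearer to Fst, at 50.8 per kb.

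Of the other secreted proteins, Tgfbi and Fstl1 were among the 5 highest genes of the set and Bmp1 was not. Tgfbi (chromosome 13, 56609523 to 56639562, plus strand) had a value of 17415, or 4618.1 per kb, at percentile 97.9. Fstl1 (chromosome 16, 37776873 to 37836514, plus strand), a follistatin-like glycoprotein, had 9247 (1881.8 per kb, percentile 95.1). Bmp1 is not a ligand but a protease that cleaves procollagen and chordin, and it had 1528 (172.3 per kb). Tgfbi, Fstl1 and Id2 together held 41.4% of the summed values of the 48 genes.

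**Figure D2:**
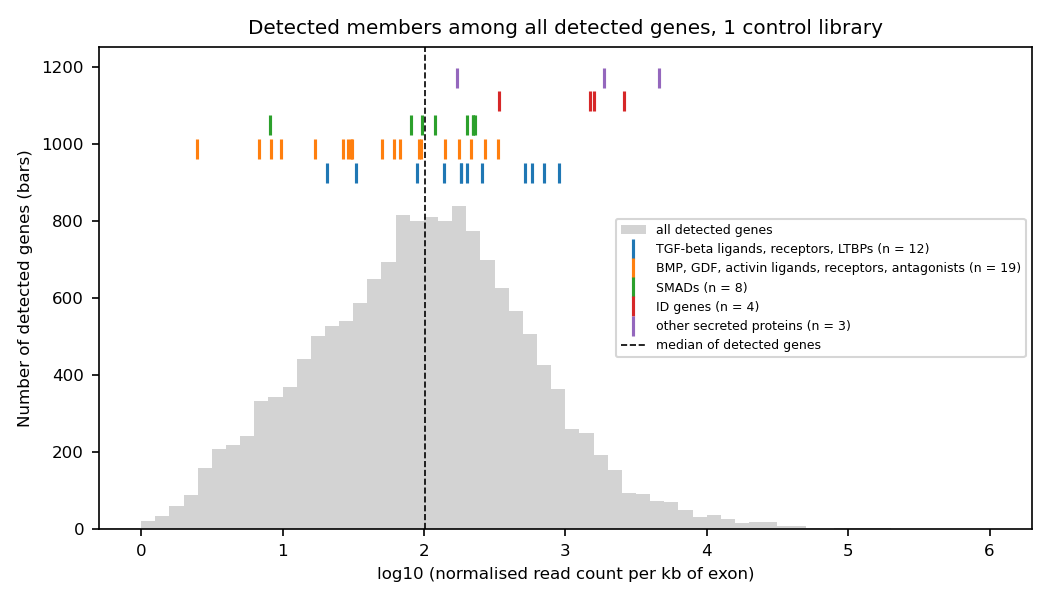
Histogram of normalised read count per kb of exon (log10 scale) for all detected genes in 1 control library, with ticks for the 46 detected members in 5 sets above it and a dashed line at the median of detected genes. The ID genes all lie right of the line, and the BMP, GDF and activin set (19 detected genes) reaches furthest left.

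SMAD genes lay near the middle of the distribution, with 1 exception. Smad3 had a value of 1276 (230.2 per kb, percentile 68.5) and Smad2 a value of 1056 (120.3 per kb), so that the TGF-beta and activin effectors differed 1.91-fold per kb. Of the BMP effectors, Smad5 had 716 (96.5 per kb) and Smad1 had 506 (80.8 per kb), which were within 1.19-fold. Smad9 was the exception at 44 (8.2 per kb, percentile 9.2), and Smad1 exceeded it 9.86-fold per kb. The shared partner Smad4 had 821 (221.2 per kb, percentile 67.5).

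The inhibitory SMAD genes Smad6 and Smad7 are themselves induced by the pathway and close a negative feedback loop. Smad6, which acts mainly on BMP signals, had a value of 709 (221.2 per kb), and Smad7, which acts on both branches, had 916 (202.6 per kb). They were within 1.09-fold per kb of each other. They were also within 1.5-fold per kb of Smad4 and Smad3.

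The ID genes encode inhibitors of basic helix-loop-helix transcription factors and are read as BMP targets. All 4 were above percentile 75, although Id4 was at 70.3 with the longest transcript as the length. Id2 (chromosome 12, 25093799 to 25097140, minus strand) had a value of 6320, or 2592.3 per kb, at percentile 96.5. Id3 (chromosome 4, 136143497 to 136145755, plus strand) had 2860 (1596.9 per kb, percentile 94.2), and Id1 (chromosome 2, 152736251 to 152737410, plus strand) had 1725 (1487.1 per kb, percentile 93.7). Id4 was lowest at 1305 (339.0 per kb, percentile 76.0). Id3 and Id1 were within 1.07-fold per kb, and Id2 exceeded Id4 7.65-fold. Other pathways also regulate ID genes, and their part in these levels was not tested.

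**Figure D3:**
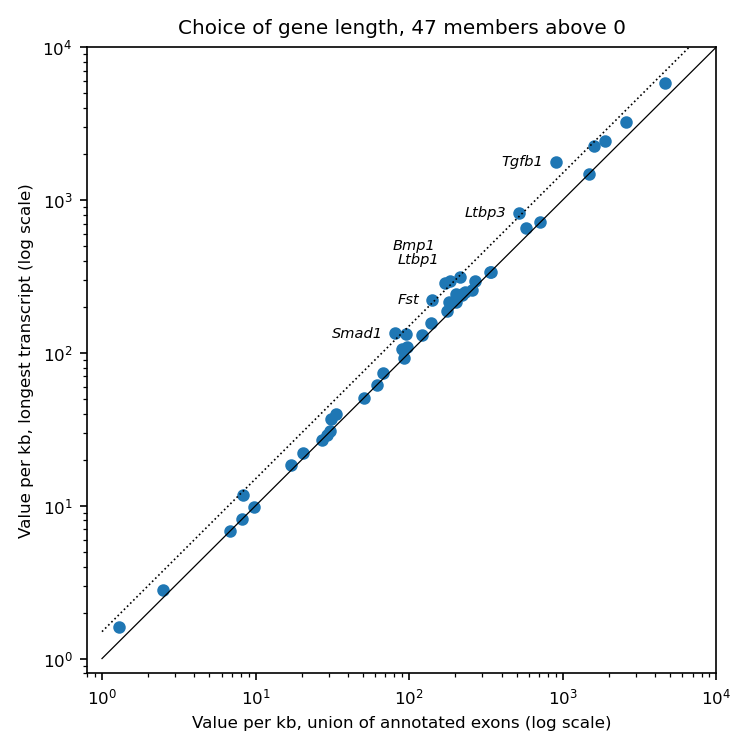
Value per kb with the union of annotated exons as the length (horizontal, log scale) against the longest transcript (vertical, log scale), for the 47 members above 0 in 1 control library. The solid line marks equal values and the dotted line a 1.5-fold rise. The 6 labelled genes lie on or beyond the dotted line, with Tgfb1 moving 1.96-fold.

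Exon length was a choice that could move these levels, because annotated exons include rare transcripts. With the longest transcript in place of all exons, 6 of the 48 genes were higher by 1.5-fold or more: Tgfb1, Ltbp3, Ltbp1, Bmp1, Fst and Smad1. Tgfb1 moved most, to 1763.3 per kb, at percentile 93.0. The largest shift in percentile over the 48 genes was 6.5, for Tgfb3 and Acvr1b. Id4 and Nog, at percentiles 76.0 and 75.8 with all exons, fell under 75, to 70.3 and 70.1.

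The rest of the pathway was examined with lists of 110 further genes. Of these, 88 were detected, beside 67.2% of all rows. The counts of detected genes in each list below are to be read beside that same share. Other ligands were low or undetected: 6 of 20 were detected, 7 were listed at 0, and none exceeded the median of detected genes. The highest were the inhibin alpha subunit gene Inha at 48 (32.5 per kb), Gdf6 at 113 (32.0 per kb) and Gdf1 at 26 (19.3 per kb). Gdf1 exons lie wholly within Cers1 on the same strand, so reads of these genes cannot be separated. Genes listed at 0 were Bmp15, Gdf2, Mstn, Inhbc, Inhbe, Lefty1 and Lefty2.

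Of 9 other receptor and co-receptor genes, 5 were detected, beside 67.2% of all rows. The pseudoreceptor gene Bambi had a value of 643 (126.7 per kb), and the BMP co-receptor gene Rgma had 535 (96.5 per kb). Its receptor neogenin (Neo1) had 695 (79.7 per kb). Amhr2, Cfc1 and Hjv (as Hfe2) were listed at 0.

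Among 15 other extracellular modulators, 11 were detected, beside 67.2% of all rows. The highest were Bgn, the small proteoglycan biglycan, at 10555 (1730.6 per kb), the BMP antagonist gene Nbl1 at 1644 (808.7 per kb), and the secreted protease gene Htra1 at 2078 (721.8 per kb). Dcn, at 3165 (542.1 per kb), was within 1.5-fold per kb of Nbl1 and Htra1 and was not ranked against them. Chrdl2 was listed at 0.

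Genes for storage and activation of latent TGF-beta were all detected, and 11 of 15 exceeded the median of detected genes. The integrin genes Itgb5, at 21914 (6167.7 per kb), and Itgb1, at 17232 (4222.5 per kb), led the list, followed by the activator thrombospondin 1 (Thbs1) at 10249 (1687.6 per kb). Integrins also serve cell adhesion. The milieu molecule Nrros, which anchors latent TGF-beta on microglia, had a value of 820 (196.3 per kb, percentile 64.9). Itgb8, whose integrin activates latent TGF-beta in the brain, was lowest at 142 (12.8 per kb, percentile 13.7).

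Intracellular regulators were detected in 21 of 21 cases, and 16 exceeded the median of detected genes. Strap, which encodes a receptor-associated protein, had 3862 (1249.8 per kb), the TGF-beta-induced feedback gene Pmepa1 had 6123 (1246.3 per kb), and the SMAD co-repressor gene Ski had 6610 (1188.4 per kb). These 3 were within 1.5-fold per kb. Fkbp1a, at 3806 (986.8 per kb), was also within 1.5-fold per kb of each and was not ranked against them. The lowest were Zfyve9, the SMAD anchor, at 214 (33.1 per kb) and the co-repressor gene Tgif2 at 153 (39.9 per kb), which were not ranked.

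Of 13 genes commonly used as TGF-beta targets, 11 exceeded the median of detected genes. The highest were Acta2 with 26499 (12066.9 per kb), Fn1 with 95749 (8194.2 per kb) and Tagln with 11771 (5921.0 per kb), where neighbours were within 1.5-fold and not ranked. Snai1 was lowest at 75 (46.3 per kb). Tagln exons overlap an antisense transcript over 62.4% of their length. Acta2, Fn1 and collagen genes are also markers of mesenchymal cells. All 7 mesenchymal markers examined were above the median of detected genes, from 185.9 to 12066.9 per kb. Of these markers, only Pdgfrb (209.9 per kb), Lum (185.9 per kb) and Dcn (542.1 per kb) are not on the target list. The part of these cells in the target gene levels was not tested.

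BMP targets other than the ID genes were lower. All 8 were detected, with a median of 93.7 per kb beside 1542.0 per kb for the ID genes, and 4 exceeded the median of detected genes. The highest were Atoh8 at 811 (323.5 per kb), Hes1 at 336 (164.9 per kb) and Hey1 at 404 (123.7 per kb). Runx2, at 993 (112.4 per kb), was within 1.5-fold per kb of Hes1 and Hey1 and was not ranked against them. Hes1 and Hey1 are also known as Notch targets. The lowest was Dlx2 at 55 (19.3 per kb).

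Microglial genes that are known to depend on TGF-beta were all detected, and 8 of 9 exceeded the median of detected genes. Fcrls, an Fc receptor-like gene, had 8874 (3802.1 per kb) and the fractalkine receptor gene Cx3cr1 had 10560 (2344.1 per kb). The transcription factor gene Sall1, which marks homeostatic microglia, was lowest at 290 (55.1 per kb, percentile 36.3). Cx3cr1, P2ry12 and Tmem119 are also among the microglial markers examined here, all of which exceeded the median of detected genes. The part of microglial content in these levels was not tested.

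**Figure D4:**
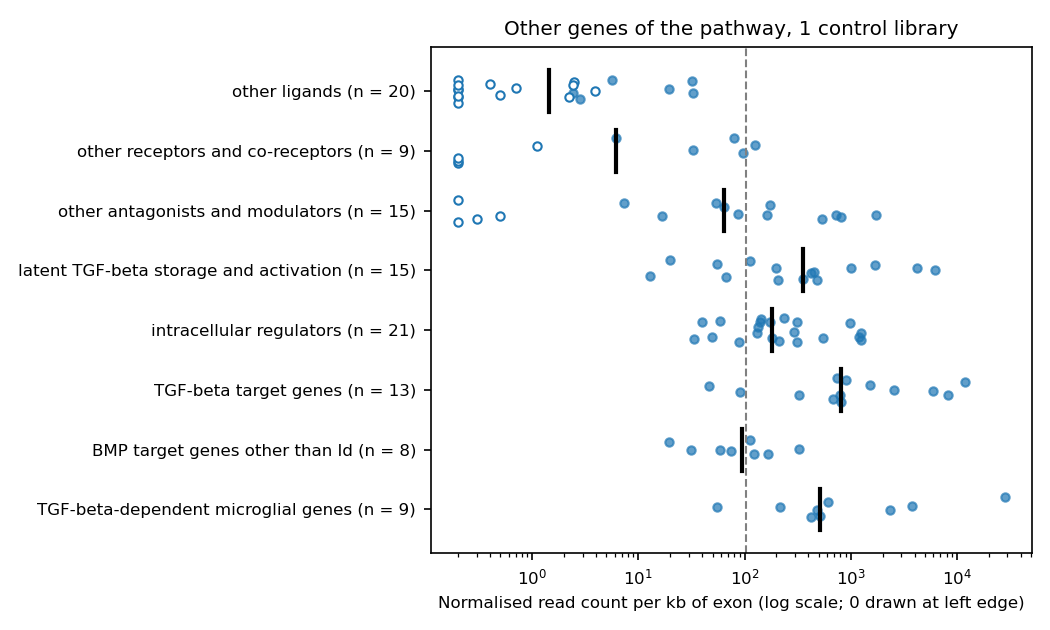
Normalised read count per kb of exon (log scale) for 110 further pathway genes in 1 control library, by list. Filled circles are detected genes, open circles genes under a value of 10, black bars list medians and the dashed line the median of detected genes. TGF-beta targets have the highest list median (804.9 per kb) and other ligands the lowest (1.4 per kb).

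The culture held several cell types, so each level is a mixture. All 7 astrocyte markers (142.1 to 4083.0 per kb) and all 7 microglial markers (425.1 to 31364.4 per kb) were above the median of detected genes, as were 5 of 7 oligodendrocyte lineage and 3 of 4 ependymal markers. Of 6 neuronal markers, 1 exceeded that median, of 4 choroid plexus markers 1, and of 5 endothelial markers none. In bulk RNA, fewer cells of a type and less RNA per cell cannot be told apart, and no member was assigned to a cell type here.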

How the data were processed

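Primary mixed glia from mouse VM were profiled by RNA-seq in 1 control library. By the study's methods, reads were trimmed at quality 20, mapped to GRCm38/mm10 with STAR and counted on exons of RefSeq Release 105 genes with HTSeq-count, whereas the submitters' processing notes name TopHat and edgeR. The deposited values were whole numbers that the authors normalised and call read counts, and they entered this work as a score, not as raw counts. The study's methods also name a count scaled by exon length and depth (FPKM). Its results text filters these data on FPKM, whereas its figure legend names normalised read counts. How they were normalised, the strand setting and the treatment of multi-mapped reads were not given in the sources used here. The read depth is unknown, so no interval was computed, and another normalisation could change every level.

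Values were divided by the union of exons in GENCODE M21 (GRCm38), which is not the annotation the authors counted on. Of the rows, 98.3% were matched by symbol or older symbol. Percentiles were taken among 15481 genes with a value of 10 or more and a length. Without a known strand setting, reads of overlapping opposite-strand genes cannot be told apart, and 16 of the 48 members have such a partner or a same-strand one. No test was made. Members and lists were chosen with earlier results of these data known. All members were named, as were the 3 highest, the lowest and the zero-valued genes of each further list, with other genes chosen after their values were seen. Some genes that this rule selects are left out of the text. Alternatives were other detection minima (1, 3, 100), the longest transcript or no length, other sums, and pseudocounts of 0.1 and 10 in place of 1. The percentile step was tested on simulated data. Python 3.11.15, numpy 2.4.6, pandas 2.3.3 and matplotlib 3.10.9 were used.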

Additional observations from a re-analysis of the deposited data

How the results depend on the processing

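Of 56 recomputed values, 3 changed sign, whatever the size of the shift. Of the others, 49 stayed within 1.5-fold of the reported value and 4 moved further. The 49 include all differences recomputed with another pseudocount. The median percentile of the members, 56.9 as reported, crossed to 44.5 among genes at 100 or more. The number of detected members was 47 at minima of 1 and 3 and 39 at 100. With the longest transcript, the log2 difference of Tgfb1 minus Tgfb3 was 2.78 in place of 1.81 and that of Nog minus Fst 0.61 in place of 1.26. Without division by length, Bmp4 minus Bmp6 was 1.19 in place of 1.98 and Smad3 minus Smad2 0.27 in place of 0.94. Another 3 differences then changed sign: Acvr1 minus Bmpr1a became -0.12, Nog minus Fst -0.18 and Smad6 minus Smad7 -0.37. These shifts follow from the exon lengths. The highest gene was the same in 11 of 11 role groups with the longest transcript and in 8 of 11 without division by length. Pseudocounts of 0.1 and 10 moved no difference beyond 1.5-fold, and at gene values far above them they could hardly do so. No paired analysis was possible because there was 1 library, for which no replicate could be left out either.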

Other observations

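Nodal signalling, a branch of the family known from the early embryo, gave an uneven picture. Nodal had a value of 1, its co-receptor genes Tdgf1 and Cfc1 values of 3 and 0, and its antagonist genes Lefty1 and Lefty2 were listed at 0. Cer1 and Dand5, which encode antagonists of Nodal and related ligands, had values of 305 (175.4 per kb, percentile 62.3) and 138 (87.1 per kb, percentile 46.4). Exons of neither gene overlap another annotated gene. Among integrin genes, Itgb6, best known from epithelia, had a value of 797 (112.1 per kb), above Itgb8 at 142 (12.8 per kb). These genes were singled out after their values were seen, and the source of their reads was not tested.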
